A study of Mus musculus with 10 samples.

Results

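The genes described here are 36 enzymes and regulators of glycolysis and of glycogen synthesis and breakdown, out of 39179 genes listed for each sample. They were chosen by name, as the main muscle forms of each step together with less abundant isozymes. The rule used no measured value, but earlier results of these data were known when the genes were chosen. They fall into 17 genes of glycolysis, 5 of lactate, glycerol phosphate and gluconeogenic reactions, 6 of glycogen breakdown, 4 of glycogen synthesis and 4 glycogen regulators. Glycolysis splits glucose into pyruvate, which lactate dehydrogenase can reduce to lactate, and it is the main fast source of ATP in the type IIb and IIx fibres that fill the tibialis anterior. Glycogen is the glucose store of the fibre. It is built by glycogenin, glycogen synthase and the branching enzyme from UDP-glucose, and it is opened by glycogen phosphorylase, which phosphorylase kinase switches on at the start of contraction.

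RNA was sequenced from the tibialis anterior (TA), a fast muscle of the lower leg, of 10 mice: 6 that carried Lewis Lung Carcinoma (LLC) tumors under the skin, grown from a mouse lung cancer line used to induce cachexia, and 4 Control mice that received buffer. The sample labels give strain C57BL/6J and injection in both flanks at 10 weeks of age. Their day is 23 for the LLC samples and 0 for the Control samples. The series text instead gives 8-week-old C57BL/10 males and day 22. No transgene or other treatment is given for either group, the 6 LLC mice were ones that lived to the end of the experiment, and the 10 libraries shared 1 sequencing lane. The comparison asks which of these genes differ in the muscle of tumor-bearing mice, and in it the presence of the tumor and the wasting cannot be told apart. If the label days are days of collection, age cannot be told apart from the tumor either.

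Total counts ranged from 16693209 to 21303084 per sample. Values are CPM, the counts of a gene per common library total, after TMM scaling, which sets the libraries to a common scale through the bulk of their genes. A count of 3 corresponds to 0.141 to 0.180 CPM on the total counts before TMM scaling, a floor that covers counting error only. One library, LLC 1, stood apart from the other LLC samples before any of the results below. The 36 genes held 5.37 to 5.51% of all counts in the Control samples, 4.55 to 5.27% in LLC 2 to 6 and 3.18% in LLC 1. The summed level of 6 muscle fibre markers (Acta1, Ckm, Tnnt3, Mylpf, Actn3 and Ryr1) was 64153 to 68416 CPM in the Control samples, 58470 to 67031 CPM in LLC 2 to 6 and 43575 CPM in LLC 1, so the labelled tissue was present in each library. Values are given with all 6 LLC samples. They are given again without LLC 1 where leaving it out moved a log2 fold change by over 1.5 times or a value across a threshold. Adjusted p-values that moved without crossing a threshold are not all given again.

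The 3 genes that changed past the threshold were Ppp1r3c, Pfkfb3 and Pfkfb1, all of them regulators of flux. Hk2 and Gys1, enzymes of the main lines, were the other 2 genes with an adjusted p of 0.05 or less by edgeR. Both stayed under the 1.5-fold limit, so that only regulators were called depends on this limit. The promoters of the 3 called genes are shown first, with those of Hk2 and Gys1. The sequences are RefSeq windows on build GRCm38.p6, each the 250 bases before a start site, written 5′ to 3′ in the sense of the gene. Capitals mark the letters CACGTG (an E-box), ACGTG (the core of a hypoxia response element, which also lies inside CACGTG) and CAGCTG (the E-box form read by myogenic factors), each searched on both strands, so that ACGTG also appears as CACGT. Pfkfb3 has start sites far apart and both are given. For Pfkfb1 the window nearest to the annotated gene start is given, out of 4 in RefSeq.
Ppp1r3c, chr19:36736605-36736854, minus strand: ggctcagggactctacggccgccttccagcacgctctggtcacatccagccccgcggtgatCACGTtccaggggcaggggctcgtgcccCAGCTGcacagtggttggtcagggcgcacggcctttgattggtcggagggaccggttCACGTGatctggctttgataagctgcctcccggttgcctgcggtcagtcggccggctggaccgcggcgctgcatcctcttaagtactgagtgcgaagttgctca
Pfkfb3, upstream start, chr2:11553930-11554179, minus strand: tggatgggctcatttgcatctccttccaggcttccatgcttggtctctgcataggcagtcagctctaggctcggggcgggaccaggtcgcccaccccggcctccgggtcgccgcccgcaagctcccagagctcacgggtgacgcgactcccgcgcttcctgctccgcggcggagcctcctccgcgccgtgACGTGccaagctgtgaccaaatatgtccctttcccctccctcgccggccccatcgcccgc
Pfkfb3, downstream start, chr2:11502091-11502340, minus strand: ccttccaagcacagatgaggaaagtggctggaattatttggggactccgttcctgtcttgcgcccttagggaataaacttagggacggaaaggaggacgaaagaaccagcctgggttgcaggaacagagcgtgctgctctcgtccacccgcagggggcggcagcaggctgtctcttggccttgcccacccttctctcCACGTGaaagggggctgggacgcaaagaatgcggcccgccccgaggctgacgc
Pfkfb1, chrX:150587993-150588242, plus strand: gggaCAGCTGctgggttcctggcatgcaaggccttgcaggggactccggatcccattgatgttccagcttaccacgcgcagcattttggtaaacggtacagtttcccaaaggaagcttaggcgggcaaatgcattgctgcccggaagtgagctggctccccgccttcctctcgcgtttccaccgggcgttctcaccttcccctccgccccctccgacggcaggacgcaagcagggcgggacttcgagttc
Hk2, chr6:82774455-82774704, minus strand: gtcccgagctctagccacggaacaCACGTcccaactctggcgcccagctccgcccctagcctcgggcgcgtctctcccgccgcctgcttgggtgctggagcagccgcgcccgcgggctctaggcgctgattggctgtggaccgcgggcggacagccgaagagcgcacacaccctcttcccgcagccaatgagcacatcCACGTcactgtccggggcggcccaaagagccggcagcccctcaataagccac
Gys1, chr7:45434589-45434838, plus strand: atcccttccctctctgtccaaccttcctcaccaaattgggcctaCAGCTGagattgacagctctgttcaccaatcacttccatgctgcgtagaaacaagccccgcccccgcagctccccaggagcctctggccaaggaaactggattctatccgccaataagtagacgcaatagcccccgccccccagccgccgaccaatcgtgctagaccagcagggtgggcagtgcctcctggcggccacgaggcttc
Both genes that rose hold CACGTG, at -104 from the start site in Ppp1r3c and at -53 from the downstream start in Pfkfb3. No window of Hk2, Gys1 or Pfkfb1 holds it. It also lay in windows of Fbp2, Gyg, Ldha and Pfkm, which were not called. Their log2 fold changes were -0.41, 0.46, -0.60 and -0.49, so genes holding it lay on both sides of 0. Over 300-base windows (250 before and 50 after the start), CACGTG lay in 6 of 52 windows of the members, 11.5%, and in 7.15% of 32851 windows in RefSeq. ACGTG lay in 42.3% of the members' windows and 19.6% of all. CAGCTG lay in 26.9% and 16.3%. GTAAACA, the letters of a forkhead site, lay in 1.92% and 3.65%. A total of 35 members had a window and Gpd1 had none. These are matches of letters, given as a description without a test.

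Of the 36 genes, 35 were expressed enough to be tested. Aldoc, the brain aldolase, was not, at 0.216 to 0.424 CPM in the Control samples and 0 to 0.565 CPM in the LLC samples. In LLC muscle 29 of the 35 had a log2 fold change below 0 (26 without LLC 1) and 6 above it, and their median was -0.26, beside 0.00 over all 12690 tested genes. In a whole-muscle extract, fewer cells of a type and less RNA per cell cannot be told apart. A gene was called when its adjusted p was 0.05 or less and its fold at least 1.5 in either direction, with edgeR's quasi-likelihood test and Benjamini-Hochberg adjustment over all tested genes. By that rule 3 of the 35 members were called, beside 5.63% of all tested genes. Of these, 1 was lower, beside 3.99% of all genes, and 2 were higher, beside 1.65%. With adjusted p alone and any fold, 5 members passed, beside 6.99% of all genes, and 13 passed an unadjusted p of 0.05 or less, beside 27.4%. As shares of the 35 these counts were 8.57, 14.3 and 37.1%.

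The samples separated more often than the test called. In 13 of the 35 members every LLC sample was below every Control sample, beside 9.57% of all tested genes, and in 1 member, Ppp1r3c, every LLC sample was above, beside 6.40%. The 13 were 10 genes of glycolysis, both Ldha and Gpd1 of the lactate and glycerol phosphate group, and Gys1 of glycogen synthesis. None of the 6 genes of glycogen breakdown was among them. Without LLC 1 the counts were 14 lower, beside 10.8% of all tested genes, and 2 higher, beside 7.42%.

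**Figure D1:**
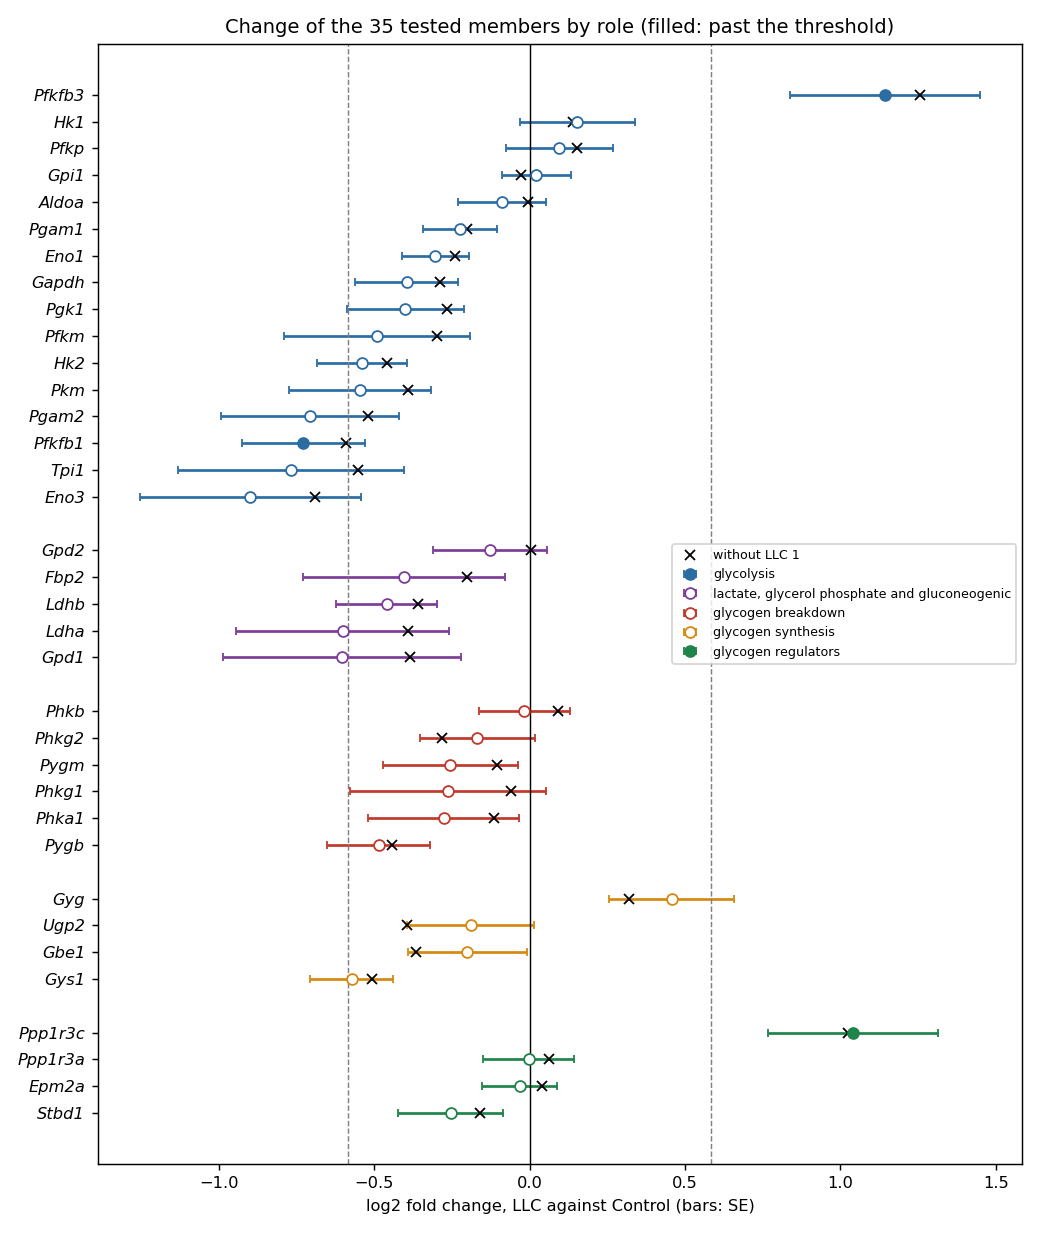
Log2 fold change of LLC against Control (horizontal axis, bars are the SE from the edgeR fit) for the 35 tested members, grouped by role, with filled points for the 3 called genes, crosses for the value without LLC 1 and dashed lines at 1.5-fold. Most glycolysis and lactate genes lie left of 0, the glycogen breakdown genes lie nearer to it, and Pfkfb3 and Ppp1r3c are the 2 points right of the upper 1.5-fold line.

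Ordered by role, the median log2 fold change was -0.40 over 16 genes of glycolysis, of which 12 were lower. It was -0.46 over the lactate, glycerol phosphate and gluconeogenic genes, of which 5 of 5 were lower. Over glycogen breakdown it was -0.26, with 6 of 6 lower, over glycogen synthesis -0.20, with 3 of 4 lower, and over the glycogen regulators -0.02, with 3 of 4 lower. Leaving LLC 1 out brought glycolysis to -0.28, the lactate group to -0.36 and glycogen breakdown to -0.11, while glycogen synthesis moved the other way, to -0.38, and the regulators to 0.05. Glycolysis and glycogen breakdown therefore lay closer to 0 without LLC 1 and glycogen synthesis farther from it. No test compares these medians.

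Gene spans are given on build GRCm38 (mm10), and each gene named is annotated as protein coding. At the entry of glycolysis, Hk2, the insulin-responsive hexokinase of muscle (ENSMUSG00000000628, chr6:82725025-82774454, minus strand), was at 358, 487, 363 and 428 CPM in Control 1 to 4. In the LLC samples it ranged from 208 to 336 CPM with a median of 293 CPM. Each LLC sample was below each Control sample, and LLC 1 was the lowest. The log2 fold change was -0.54 ± 0.14 (SE), with an adjusted p of 0.0459, so Hk2 passed on p and stayed under the 1.5-fold limit. Hk1, the housekeeping hexokinase, was low in this muscle, at 6.28 ± 0.789 CPM (SD, n = 4) in Control and 6.97 ± 1.61 CPM (SD, n = 6) in LLC, with overlapping groups. Gpi1, which turns glucose 6-phosphate into fructose 6-phosphate, had a log2 fold change of 0.02, or -0.03 without LLC 1, and LLC values on both sides of the Control samples.

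The control point of glycolysis is phosphofructokinase, and its strongest activator, fructose 2,6-bisphosphate, is made and removed by the Pfkfb enzymes. Of the Pfkfb genes among the members, Pfkfb1 fell and Pfkfb3 rose. Pfkfb1, the liver and muscle form (ENSMUSG00000025271, chrX:150588229-150643878, plus strand), was at 60.9, 71.2, 70.3 and 62.0 CPM in Control 1 to 4 and at 20.8 to 49.6 CPM in the LLC samples, with a median of 42.6 CPM. The groups did not overlap, and LLC 1 was again the lowest. It fell, with -0.73 ± 0.20 as log2 fold change ± SE and an adjusted p of 0.0480; without LLC 1 the values were -0.59 and 0.00342. An exon of Apex2 lies on the opposite strand within this gene, so its count may hold reads of Apex2 if strand was not used in counting.

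Pfkfb3, the inducible form with a high kinase activity (ENSMUSG00000026773, chr2:11471433-11554077, minus strand), was at 85.4, 167, 231 and 259.7 CPM in Control 1 to 4. Its LLC values ran from 254 to 543 CPM, with a median of 416 CPM. Here LLC 2 to 6 lay above every Control sample and LLC 1, at 254 CPM, lay just under Control 4, so the groups touched through that library. Pfkfb3 rose, by 1.14 ± 0.31 (log2 fold change ± SE) at an adjusted p of 0.0457, and without LLC 1 by 1.26 at 0.0120. The Control samples themselves were widely spread around their mean of 186 ± 77.3 CPM (SD, n = 4). Pfkm, the muscle phosphofructokinase, was at 4808 ± 94.0 CPM (SD, n = 4) in Control and 3419 ± 1257 CPM (SD, n = 6) in LLC, without overlap, and its log2 fold change of -0.49 ± 0.30 (SE) had an adjusted p of 0.293. Without LLC 1 these were -0.30 and 0.0734. Pfkp, the platelet form, stayed under 6 CPM in every library and had a log2 fold change of 0.09, or 0.15 without LLC 1. The other 2 genes of the family, listed with the wider pathway, overlapped between groups: Pfkfb2 had -0.47 ± 0.20 (log2 fold change ± SE, adjusted p 0.158) and Pfkfb4 0.34 ± 0.22 (adjusted p 0.321). Without LLC 1 Pfkfb4 was at 0.18 (adjusted p 0.480).

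**Figure D2:**
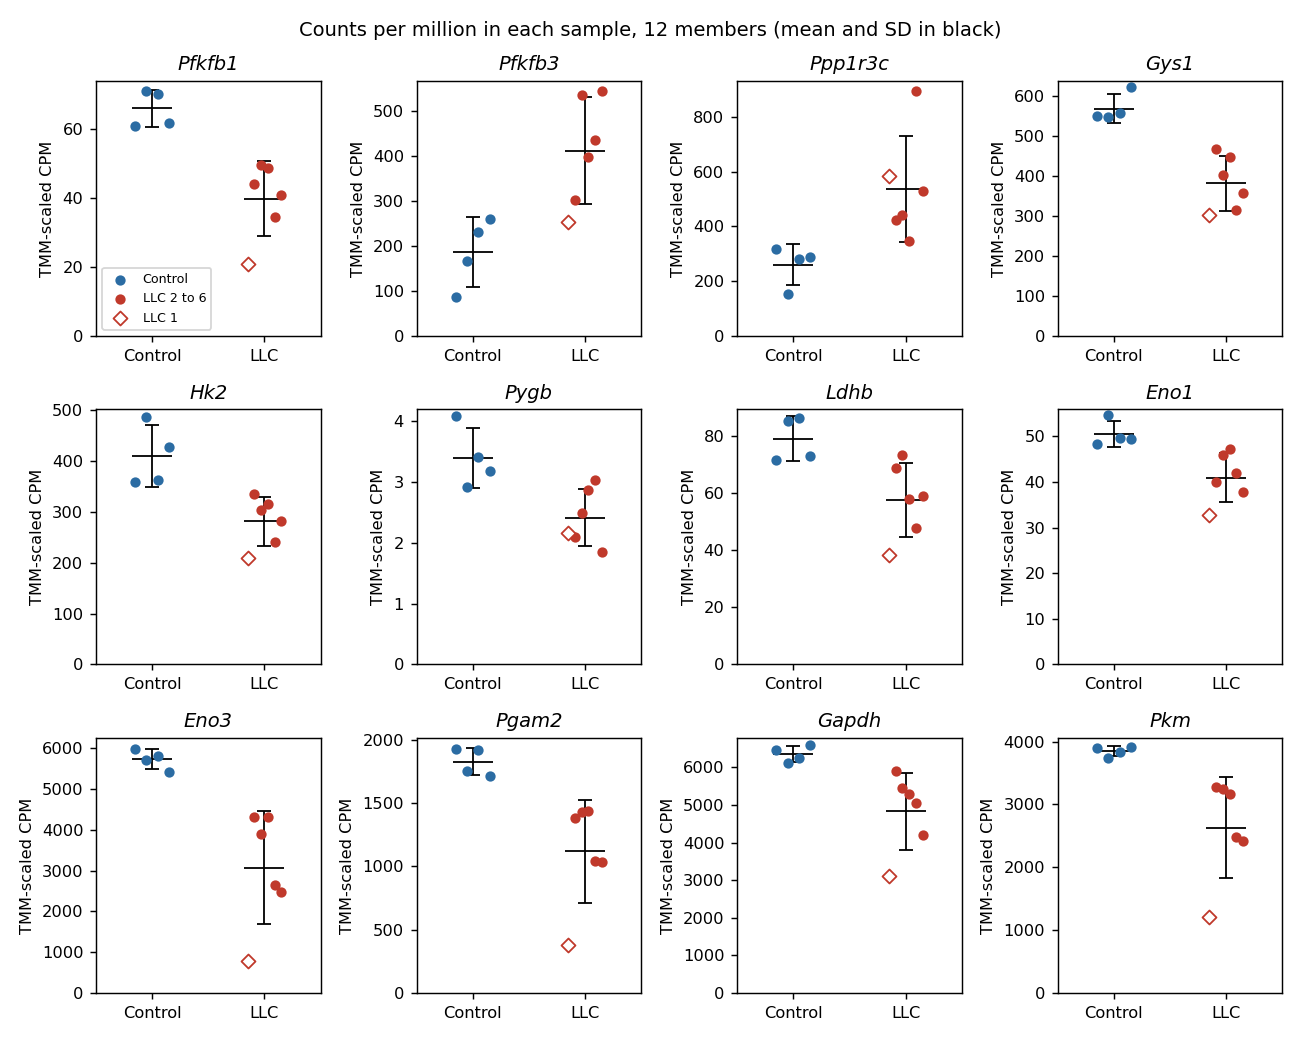
TMM-scaled CPM (vertical axes, from 0) of the 12 members described in full, 1 panel each, with Control samples in blue, LLC 2 to 6 in red, LLC 1 as an open diamond and the mean and SD in black. LLC 1 is the lowest sample in 9 of the 12 panels, and Pfkfb3 and Ppp1r3c are the 2 panels in which the LLC group lies higher.

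Past phosphofructokinase, the abundant enzymes differed in how far the LLC samples lay from Control. Aldoa, the muscle aldolase and per kilobase of exon the most abundant member at 5814 CPM per kb in Control, had a log2 fold change of -0.09, or -0.01 without LLC 1, and overlapping groups. The next most abundant genes of glycolysis, Eno3, Pgam2, Gapdh and Pfkm, were at 3301, 2176, 1538 and 1440 CPM per kb in Control and at 1769, 1333, 1168 and 1024 CPM per kb in LLC. All 4 separated the groups without overlap, while Aldoa did not.

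Eno3, the muscle enolase (ENSMUSG00000060600, chr11:70657202-70662513, plus strand), had the lowest log2 fold change of the 35 members. It was at 5994, 5724, 5819 and 5422 CPM in Control 1 to 4 and at 777 to 4323 CPM in LLC, with a median of 3275 CPM. The LLC samples were spread widely: LLC 2 to 4 lay at 3895 to 4323 CPM, LLC 5 and LLC 6 at 2655 and 2484 CPM, and LLC 1 at 777 CPM. The log2 fold change of -0.90 ± 0.36 (SE) had an adjusted p of 0.136. Without LLC 1 it was smaller, at -0.69, and past the threshold, with an adjusted p of 0.0156. That made 4 of the members called in the fit without LLC 1, beside 7.65% of the genes tested in it.

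Pgam2, the muscle phosphoglycerate mutase (ENSMUSG00000020475, chr11:5801640-5803733, minus strand), followed the same layout. Its values were 1924, 1755, 1918 and 1714 CPM in Control 1 to 4, and in LLC 380.2 to 1436 CPM with a median of 1214 CPM. The groups did not overlap, and the log2 fold change of -0.71 ± 0.29 (SE) had an adjusted p of 0.143. Without LLC 1 the adjusted p was 0.0113 at a log2 fold change of -0.52, under the 1.5-fold limit. Tpi1, triose phosphate isomerase, was at -0.77 ± 0.36 (log2 fold change ± SE, adjusted p 0.192), and Pgk1, phosphoglycerate kinase, at -0.40 ± 0.19 (adjusted p 0.192). Both separated the groups. Without LLC 1 Tpi1 was at -0.55 (adjusted p 0.0194) and Pgk1 at -0.27 (adjusted p 0.0665).

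Gapdh, which oxidises glyceraldehyde 3-phosphate and is often taken as a reference gene (ENSMUSG00000057666, chr6:125161715-125166467, minus strand), was at 6458, 6104, 6253 and 6607 CPM in Control 1 to 4. The LLC samples lay at 3101 to 5894 CPM with a median of 5174 CPM, all below the Control samples. Its log2 fold change was -0.40 ± 0.17 (SE) with an adjusted p of 0.154. Pkm, pyruvate kinase (ENSMUSG00000032294, chr9:59656368-59679375, plus strand), was at 3893, 3742, 3832 and 3914 CPM in Control 1 to 4 and 1206 to 3270 CPM in LLC, with a median of 2825 CPM. Again no LLC sample reached the Control range. The log2 fold change was -0.55 ± 0.23 (SE), the adjusted p 0.155, and without LLC 1 the values were -0.39 and 0.0274. A gene-level count does not separate its M1 and M2 transcripts.

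Eno1, the enolase of most other tissues (ENSMUSG00000063524, chr4:150236721-150248879, plus strand), was at 48.2, 54.8, 49.6 and 49.5 CPM in Control 1 to 4. In LLC it lay at 32.8 to 47.2 CPM with a median of 41.0 CPM, and the highest LLC sample was just under the lowest Control sample. Its log2 fold change of -0.30 ± 0.11 (SE) had an adjusted p of 0.105. Pgam1, the non-muscle mutase, was at 4.24 ± 0.406 CPM (SD, n = 4) in Control and 3.62 ± 0.334 CPM (SD, n = 6) in LLC, with overlap. Gapdh, Eno1, Pgam1, Tpi1, Pkm, Aldoa, Pgk1 and Ldha have processed pseudogenes, so their counts depend on how reads matching several places were treated. Exons of Iffo1 (Gapdh), Spsb2 (Tpi1) and Senp1 (Pfkm) lie on the opposite strand of the gene named, where reads cannot be told apart if strand was not used, and the same holds for Fam57b (Aldoa) and for Gm26762 (Gpi1), Gm16537 (Gpd1) and Gm12043 (Ugp2). On the same strand, exons of Gm49759 overlap Pkm and those of Gm26513 overlap Pfkm.

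In the branch that follows pyruvate and triose phosphate, Ldha and Ldhb make the muscle and heart subunits of lactate dehydrogenase. Ldhb (ENSMUSG00000030246, chr6:142490249-142507957, minus strand) was at 71.7, 85.1, 86.4 and 73.1 CPM in Control 1 to 4 and 38.4 to 73.4 CPM in LLC, with a median of 58.3 CPM. LLC 3, the highest, lay above Control 1 and Control 4, so the groups overlapped. The log2 fold change was -0.46 ± 0.16 (SE) with an adjusted p of 0.105. Ldha was at 2427 ± 84.9 CPM (SD, n = 4) in Control and 1598 ± 663 CPM (SD, n = 6) in LLC, without overlap, and its log2 fold change of -0.60 ± 0.34 (SE) had an adjusted p of 0.265. Gpd1, the cytosolic glycerol phosphate dehydrogenase, had -0.60 ± 0.38 (SE) and 0.313, while its mitochondrial partner Gpd2 had -0.13 and Fbp2, the muscle fructose bisphosphatase, -0.41, both with overlapping groups. LLC 1 carried much of these sizes: without it Ldha was at -0.39 (adjusted p 0.0479), Gpd1 at -0.39 (adjusted p 0.111), Fbp2 at -0.20 and Gpd2 at 0.00. In this group of 5 genes, 0 were called by edgeR, by DESeq2 or by limma voom. These tests called 5.63, 8.29 and 7.86% of all tested genes, and 0 of 5 genes is close to such shares. By edgeR 1 of the 5, Ldhb, had an unadjusted p of 0.05 or less, beside 27.4% of all genes.

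In glycogen breakdown no gene passed the test. Pygm, the muscle phosphorylase, stood at 2034 CPM per kb in Control and 1704 CPM per kb in LLC. Its CPM was 6546 ± 200.1 (SD, n = 4) and 5483 ± 1491 (SD, n = 6), with LLC 3 above every Control sample and LLC 1 at 2624 CPM. The log2 fold change was -0.26 ± 0.22 (SE) with an adjusted p of 0.448, and -0.11 without LLC 1. Pygb, the brain phosphorylase (ENSMUSG00000033059, chr2:150786735-150831758, plus strand), was scarce, at 4.08, 2.91, 3.41 and 3.18 CPM in Control 1 to 4 and 1.84 to 3.02 CPM in LLC, with a median of 2.33 CPM. LLC 5 lay above Control 2, and the log2 fold change of -0.49 ± 0.17 (SE) had an adjusted p of 0.0977.

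The phosphorylase kinase subunits are Phka1 and Phkb, which regulate it, and Phkg1 and Phkg2, which are catalytic, Phkg1 in muscle. Their log2 fold changes were -0.28, -0.02, -0.26 and -0.17, with adjusted p from 0.464 to 0.946. Without LLC 1 they were -0.12, 0.09, -0.06 and -0.28, so that Phkb changed its sign. Of the 6 breakdown genes 0 were called by edgeR, with or without LLC 1, by DESeq2 or by limma voom. These fits called 5.63, 7.65, 8.29 and 7.86% of all tested genes, and 0 of 6 genes is close to such shares. By edgeR 1 of the 6, Pygb, had an unadjusted p of 0.05 or less, beside 27.4% of all genes.

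Glycogen synthesis held the member with the lowest p of all 35. Gys1, muscle glycogen synthase (ENSMUSG00000003865, chr7:45434844-45456619, plus strand), was at 550.1, 548, 557 and 622 CPM in Control 1 to 4 and 302 to 468 CPM in LLC, with a median of 381 CPM. Each LLC sample was below each Control sample, and Control 4 was the highest of all. As log2 fold change the difference was -0.57 ± 0.13 (SE) with an adjusted p of 0.0264, just under the 1.5-fold limit, and -0.51 with 0.0110 without LLC 1. Exons of Ruvbl2 lie on its opposite strand.

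The other 3 genes of synthesis did not follow Gys1 in every library. Gyg, glycogenin, the protein primer of the glycogen particle, was at 347, 328, 334 and 303 CPM in Control 1 to 4 and 320.3 to 669 CPM in LLC. LLC 1 and LLC 5, at 669 and 585 CPM, were far above the rest, and its log2 fold change of 0.46 ± 0.20 (SE) had an adjusted p of 0.172. Ugp2, which makes UDP-glucose, was at 899, 838, 816 and 803 CPM in Control 1 to 4, at 65.5 to 88.6% of the Control mean in LLC 2 to 6 and at 148% in LLC 1. Its log2 fold change was -0.19 with all samples, adjusted p 0.556, and -0.40 without LLC 1, adjusted p 0.0144. Gbe1, the branching enzyme, went from -0.20 with an adjusted p of 0.499 to -0.37 with 0.0498. One library thus decided on which side of an adjusted p of 0.05 both genes lay, although neither reached 1.5-fold.

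Among the regulators, Ppp1r3c, a glycogen-targeting subunit of protein phosphatase 1 that brings the phosphatase to glycogen synthase and phosphorylase (ENSMUSG00000067279, chr19:36731731-36736653, minus strand), was the 1 gene with every LLC sample above every Control sample. It was at 317, 152, 282 and 289.9 CPM in Control 1 to 4. In LLC it ranged from 347 to 893 CPM with a median of 485 CPM, LLC 5 being the highest. Ppp1r3c rose, by 1.04 ± 0.27 (log2 fold change ± SE) at an adjusted p of 0.0429, and without LLC 1 by 1.03 at 0.0268. Ppp1r3a, the muscle glycogen-targeting subunit, had a log2 fold change of 0.00 ± 0.15 (SE), Epm2a, the glycogen phosphatase laforin, -0.03 ± 0.12 (SE), and Stbd1, a glycogen-binding protein, -0.25 ± 0.17 (SE), all with overlapping groups. Without LLC 1 these were 0.06, 0.04 and -0.16.

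The 3 calls were close to the threshold. No member was called by edgeR when any 1 Control sample, LLC 5 or LLC 6 was left out, with 8 to 10 members at an unadjusted p of 0.05 or less in those fits. Over all genes those fits called 3.25, 3.41, 3.24 and 3.26% without Control 1 to 4, 3.90% without LLC 5 and 3.78% without LLC 6. There were 4 calls without LLC 1, 4 without LLC 2, beside 6.25% of all genes, 2 without LLC 3 (Gys1 and Pfkfb1), beside 5.49%, and 3 without LLC 4, beside 6.38%. DESeq2 called the same 3 genes, beside 8.29% of all tested genes, and limma voom called Eno3 in place of Pfkfb1, beside 7.86%.

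**Figure D3:**
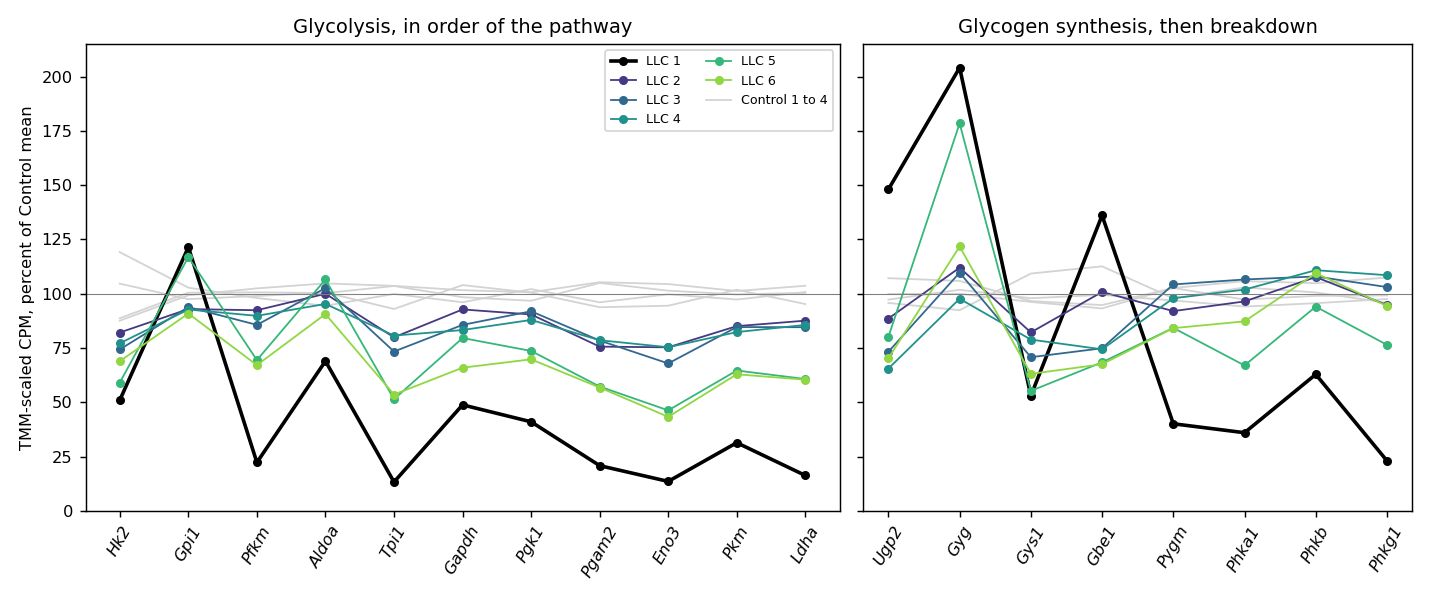
TMM-scaled CPM as a percent of the Control mean (vertical axis) for 11 genes in the order of glycolysis (left) and 8 genes of glycogen synthesis and breakdown (right), 1 line per LLC sample, LLC 1 in black and the 4 Control samples in grey. LLC 1 drops at Pfkm, Tpi1, Eno3 and Ldha but lies above 100% at Gpi1, Ugp2, Gyg and Gbe1.

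How far an LLC sample lay from Control depended on the enzyme and on the library. In LLC 1, Tpi1 was at 13.3% of the Control mean, Eno3 at 13.5%, Gpd1 at 13.5%, Ldha at 16.3% and Pgam2 at 20.8%. Aldoa in the same library was at 68.9%, Gpi1 at 121% and Gyg at 204%. In LLC 2 to 6 the range was 51.4 to 80.7% for Tpi1, 43.3 to 75.3% for Eno3, 60.4 to 87.6% for Ldha and 90.6 to 107% for Aldoa. By role, the median log2 ratio to the Control mean over glycolysis genes was -1.004 in LLC 1 and -0.53 to -0.17 in LLC 2 to 6. Over the lactate group it was -2.26 in LLC 1 and -0.72 to -0.09 in LLC 2 to 6, and over glycogen breakdown -0.99 and -0.22 to 0.05. Only over glycogen synthesis was LLC 1 above the Control mean, at 0.50, with LLC 2 to 6 at -0.54 to -0.08.

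**Figure D4:**
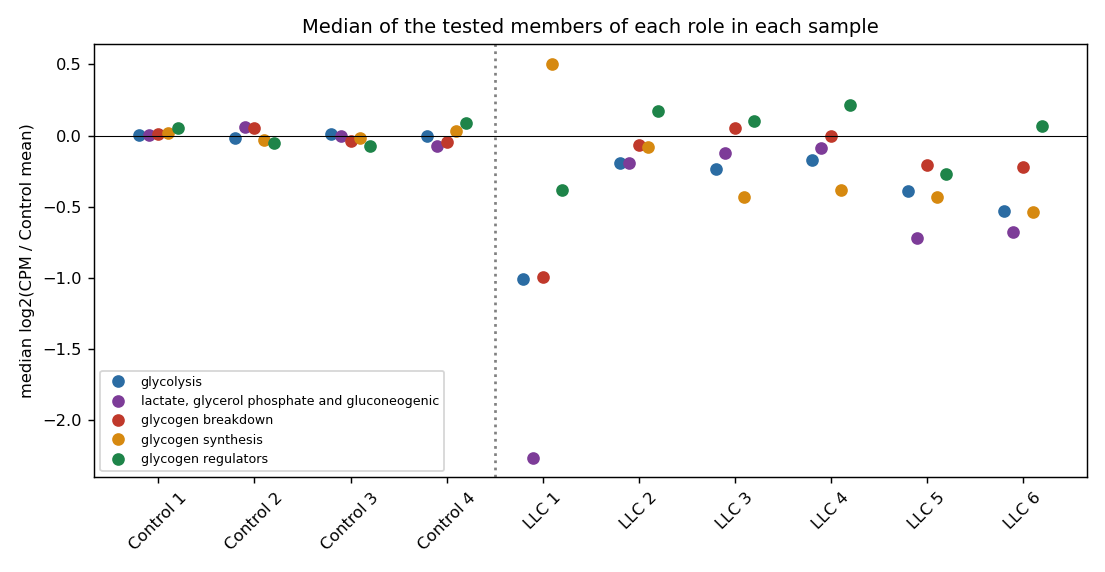
Median over the tested members of each role of the log2 ratio of a sample's CPM to the Control mean (vertical axis), for each of the 10 samples, with 1 color per role and small horizontal offsets. The Control samples lie close to 0, and in LLC 1 the roles spread from -2.26 (lactate group) to 0.50 (glycogen synthesis).

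A ratio of 2 genes within a library does not depend on library scaling, and 7 such ratios were tested by a two-sided exact permutation test over 210 assignments of the 10 samples, whose smallest p is 0.00952. Eno1/Eno3, the enolase of most tissues against that of muscle, had a mean log2 ratio of -6.83 ± 0.11 (SD, n = 4) in Control and -6.04 ± 0.78 (SD, n = 6) in LLC. This difference of 0.78 had an exact p of 0.0191, or 0.133 after Benjamini-Hochberg adjustment over the 7. The other isozyme pairs that set a scarce form over a muscle form gave 0.75 for Pfkp/Pfkm, 0.67 for Hk1/Hk2, 0.60 for Pgam1/Pgam2 and 0.30 for Ldhb/Ldha, all toward the scarce form, while Pygb/Pygm gave -0.19. Their adjusted exact p ran from 0.178 to 0.524, and every pair overlapped between the groups. Pygm/Gys1, the enzyme of breakdown against that of synthesis, was 3.52 ± 0.12 (SD, n = 4) in Control and 3.80 ± 0.37 (SD, n = 6) in LLC, a difference of 0.27 with an exact p of 0.200 and an adjusted p of 0.280. In that ratio LLC 2 to 6 all lay above the Control samples, at 3.69 to 4.13, and LLC 1 lay below them, at 3.12. Without LLC 1 its exact p was 0.0159, the smallest that the test can give there, or 0.111 after adjustment. Without LLC 1 the differences were 0.49 for Eno1/Eno3, 0.50 for Pfkp/Pfkm, 0.55 for Hk1/Hk2, 0.33 for Pgam1/Pgam2, 0.04 for Ldhb/Ldha, -0.36 for Pygb/Pygm and 0.41 for Pygm/Gys1, so that library carried most of the Ldhb/Ldha difference. A single ratio at the smallest p would reach an adjusted p of only 0.0667 over the 7, so the design leaves little room to pass, and the p-values do not show that the pairs moved alike.

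**Figure D5:**
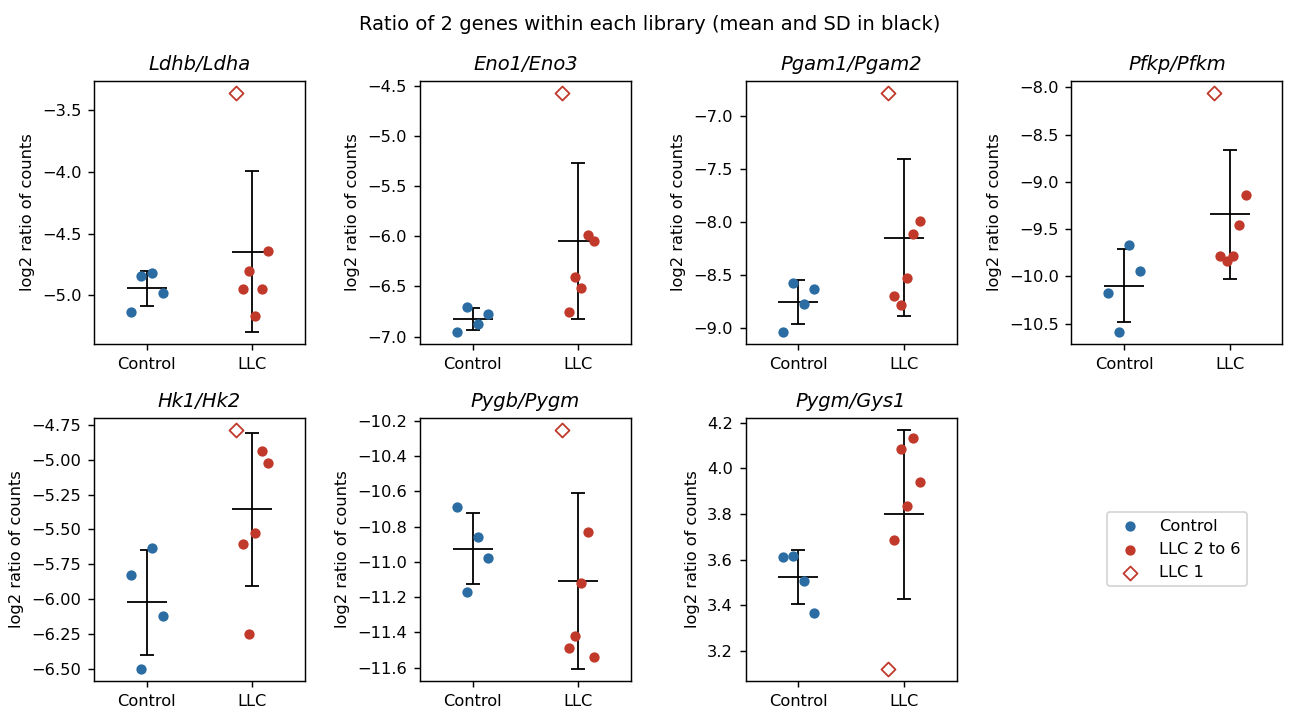
Log2 ratio of the raw counts of 2 genes within each library (vertical axes, not starting at 0) for the 7 pairs, with Control in blue, LLC 2 to 6 in red, LLC 1 as an open diamond and the mean and SD in black. LLC 1 is the highest sample in 6 panels and the lowest in Pygm/Gys1, where LLC 2 to 6 lie above the Control samples.

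Markers of other cells moved with the comparison. All 7 neutrophil markers (S100a8, S100a9, Csf3r, Cxcr2, Mmp9, Mmp8 and Lcn2) were called higher, with a sum of 1.27 to 2.57 CPM in Control and 33.0 to 70.7 CPM in LLC. All 5 fibroblast markers (Pdgfra, Col1a1, Col3a1, Dcn and Lum) were called lower, with a sum of 237 to 304 CPM in Control and 46.8 to 80.1 CPM in LLC. Of the 4 macrophage markers tested edgeR called 1 lower, while DESeq2 and limma voom each called 2. The sum of the 5 macrophage markers listed was 10.1 to 13.0 CPM in Control and 7.12 to 9.71 CPM in LLC, without overlap. By edgeR, of 4 endothelial markers 1 was lower, of 3 erythroid markers 2 were higher, and of 2 adipocyte markers tested 0 were called. Of the 6 muscle fibre markers 0 were called by edgeR, DESeq2 or limma voom, beside 5.63, 8.29 and 7.86% of all tested genes. By edgeR 3 of the 6 had an unadjusted p of 0.05 or less, beside 27.4% of all genes. Of the myosin heavy chains of the 4 fibre types 0 were called by edgeR, 1 by DESeq2 and 1 by limma voom, while 3 reached an unadjusted p of 0.05, with sums of 49114 to 55169 CPM in Control, 48810 to 57372 CPM in LLC 2 to 6 and 36190 CPM in LLC 1. Their log2 fold changes were -1.14 ± 0.38 for Myh7 (type I), -1.32 ± 0.51 for Myh2 (IIa), -0.72 ± 0.26 for Myh1 (IIx) and 0.13 ± 0.18 for Myh4 (IIb), each ± SE and with overlapping groups, and without LLC 1 Myh2 and Myh1 were called lower. The part of these cells and fibre types in the results above was not tested.

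Of 50 other genes of glucose and glycogen metabolism 41 were tested, 22 with a log2 fold change below 0 and 19 above it, with a median of -0.03. Only Pdk4, the kinase that shuts off pyruvate dehydrogenase (ENSMUSG00000019577, chr6:5483351-5496309, minus strand), was called by edgeR, 1 of the 41, beside 5.63% of all tested genes. At an unadjusted p of 0.05 or less by edgeR 7 were lower and 5 higher, beside 27.4% of all genes in either direction. DESeq2 called 1 lower and 2 higher, beside 8.29% of all genes in either direction. Pdk4 was at 604, 375, 639.6 and 649 CPM in Control 1 to 4 and 580.3 to 2009 CPM in LLC, with a median of 1272 CPM. LLC 2 lay within the Control range and the other LLC samples above it. Pdk4 rose, by 1.23 ± 0.33 (log2 fold change ± SE) at an adjusted p of 0.0480. The 4 others with the lowest p, all under 1.5-fold, were Mpc1 of the mitochondrial pyruvate carrier (-0.44 ± 0.11, adjusted p 0.0284), Hif1a, a transcription factor of the hypoxia response (0.54 ± 0.14, 0.0400), Slc2a4, the insulin-responsive glucose transporter GLUT4 (-0.58 ± 0.15, 0.0431), and Slc16a1, a lactate transporter (-0.49 ± 0.13, 0.0476), each as log2 fold change ± SE. Slc2a4 and Mpc1 did not overlap between groups, while Hif1a and Slc16a1 did. Without LLC 1 Slc16a1 passed the threshold, with a log2 fold change of -0.60 and an adjusted p of 0.000236 by edgeR. In that fit 5 of the 41 genes were called, beside 7.65% of all genes tested in it.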

How the data were processed

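Per the labels, total RNA of the tibialis anterior was made into stranded total RNA libraries and sequenced from both ends. The authors deposited raw counts per gene, 1 file per sample and not normalized; per the study's methods, reads were mapped to mm10 with TopHat2 and counted for RefSeq genes with HTSeq at default settings. The files list Ensembl identifiers, so the annotation and strand setting behind the counts were taken as unknown. Of 39179 identifiers, 37693 were matched to GENCODE M21 (GRCm38), which gave symbols, coordinates, overlaps and exonic length. Small RNA libraries were not analysed here.

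Group and replicate number came from the sample titles (4 Control, 6 LLC). The members and gene lists were chosen with earlier results of these data known. Counts were filtered with filterByExpr, which kept 12690 genes, scaled by TMM and fitted with edgeR 4.0.16 (glmQLFit and glmQLFTest, R 4.3.3) over all 10 samples. SEs came from the F statistic, p was adjusted by Benjamini-Hochberg over all tested genes, and a call needed an adjusted p of 0.05 or less and at least 1.5-fold. Where nothing states separate housing or culture of the animals, p-values measure the spread between these samples. No 2 libraries agreed within sampling noise.

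Members were described in full if called and then by lowest unadjusted p up to 12, and other pathway genes likewise up to 5. Ratios of raw counts were compared with exact permutation tests (scipy 1.17.1). An eighth ratio, Aldoc/Aldoa, was not computed because LLC 3 had 0 counts of Aldoc, so adjustment was over 7. Alternatives were other scalings and filters, DESeq2 1.42.0, limma 3.58.1 (voom with quality weights), a replicate block, other thresholds, a pseudocount of 0.5 for the ratios, and leaving out each sample. Figures were drawn with matplotlib 3.10.9, and promoter windows came from RefSeq.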

Additional observations from a re-analysis of the deposited data

Results flagged for a closer look

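Within groups of 4 to 10 samples, the gap of the highest or lowest sample to its neighbour was divided by the range of the group and set against Dixon's limit. Of 86 groups examined, 7 passed, where chance alone gives about 4.3, and 6 of the 7 were LLC 1. LLC 1 was the lowest LLC sample for Pfkm, at 1071 CPM with a gap of 0.640 of the range, for Pygm, at 2624 CPM with a gap of 0.686, and for Phkb, at 261 CPM with a gap of 0.650. It was the highest LLC sample for Ugp2, at 1242 CPM with a gap of 0.721, for the log2 ratio Ldhb/Ldha, at -3.36 with a gap of 0.707, and for the log2 ratio Eno1/Eno3, at -4.57 with a gap of 0.649. In the Control group, Control 4 was the highest for Gys1, at 622 CPM with a gap of 0.870.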

How the results depend on the processing

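The 3 calls among the members moved with the threshold, the scaling and the samples. There were 5 at an adjusted p of 0.05 or less with any fold, beside 6.99% of all genes. At an unadjusted p of 0.05 or less with the fold there were also 5, without a share over all genes to set beside them. By edgeR there were 0 when each gene needed 10 counts in every sample, beside 475 of all 11379 genes tested. In that fit 13 members had an unadjusted p of 0.05 or less. With upper-quartile factors in place of TMM edgeR called 2 members, Gys1 and Ppp1r3c, beside 733 of all 12690 genes tested. Pfkfb1 and Pfkfb3 then had adjusted p of 0.0559 and 0.0543. With median-of-ratios factors edgeR called the same 3 members as with TMM, beside 703 of 12690. Leaving out 1 sample gave 0 to 4. Deviations of same-numbered Control and LLC samples from their group means had correlations from -0.0429 to 0.105. Only for number 4 was the same-numbered sample the best match. With 4 pairs these values do not decide whether the numbers pair animals. With the replicate block over the 8 numbered samples 0 members were called, beside 107 of all 12528 genes tested. The same 8 samples without the block also gave 0, beside 299 of 12528. Each of these fits had 7 members at an unadjusted p of 0.05 or less (both by edgeR).

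Direction was kept for each member described in full and each of the 5 other pathway genes in all 19 alternatives, while Pfkfb1, Pfkfb3, Ppp1r3c and Pdk4 lost the call in 11, 11, 9 and 9. Adjusted p ranged from 0.00146 to 0.211 for Pfkfb1, 0.00311 to 0.126 for Pfkfb3 and 0.00322 to 0.186 for Ppp1r3c. Median log2 fold changes ranged from -0.45 to -0.27 for glycolysis, -0.34 to -0.09 for glycogen breakdown and -0.38 to -0.13 for glycogen synthesis. The ratio differences kept their direction in all 11 alternatives, where their p-values carry no weight because 1 ratio alone could reach an adjusted p of only 0.111 or 0.167 with a sample left out. Groups did not overlap for 14 to 16 members. The fit without the block on the 8 samples and the counts without overlap under other scalings or without LLC 1 were added after seeing the data. Depth limits Pygb, Pfkp, Hk1, Pgam1 and Phkg2, all under 10 CPM.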
